A study of Sus scrofa with 8 samples.

Results

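The hearts of miniature pigs given doxorubicin are described here on their own, as 5 of the 8 RNA libraries of the series. They were taken by their treatment label, and the 3 vehicle libraries, which share the tissue and genotype labels, were not used. All 5 came from heart tissue of wild-type Sus scrofa (labelled WT) and carried doxorubicin as the only treatment. The sources used here give neither the heart chamber nor the dosing, and neither age nor sex. The labels number the doxorubicin samples 1 to 5 but do not say that each came from a separate animal, so every p-value measures the spread between these libraries, which may be technical. The numbers are names, and carry no order of dose or time.

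Doxorubicin is an anthracycline, a cancer drug that traps topoisomerase on DNA and damages heart muscle, mitochondria included. A strained heart is known for releasing natriuretic peptides, for a shift of its fibroblasts towards making extracellular matrix, and for a fall in the oxidative metabolism that normally feeds contraction. ERRα, the nuclear receptor named in the title of the series and encoded by ESRRA, drives many genes of that oxidative metabolism. The questions asked of the 5 libraries were which genes differed between them by more than other genes of similar abundance did, and which of those genes were high and low in the same libraries.

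Each library held between 17442566 and 18267178 counts. Library 5 stood apart from the others. It was the highest of the 5 for 4507 of 13332 tested genes (33.8%) and the lowest for 4417 (33.1%), and its score on the first principal component was 73.9 against -42.2 to 18.3 in the other 4. Its longer genes were also low: the median deviation of the longest 10% of genes was -0.38 on the log2 scale in library 5 and 0.07 to 0.12 elsewhere, and that of the shortest 10% was 0.33 against -0.15 to 0.00. With this length trend removed, the count of genes with excess spread was 546, 476 of them also called without that correction. Medians of gene lists that it moved are given with it. Of the named genes, TREM2 and CXCL16 then lost their calls, and SLA-DRB1 and FABP4 gained one. Transcripts of mitochondrial DNA took 16.6%, 12.3%, 12.8%, 13.4% and 8.70% of the counts in libraries 1 to 5 (12.8% ± 2.83, SD, n = 5). Markers of ventricular muscle were high in every library, with a summed level of 34889 to 63603 CPM over 13 genes, and the lung surfactant genes SFTPB and SFTPC had at most 5 reads in any library. Levels are given as CPM, counts scaled to a common library total by the TMM method, in the order of libraries 1 to 5.

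Most genes differed between the 5 libraries by more than the counting of reads allows, and a small share differed by far more than other genes of the same abundance. Of 13332 genes tested with edgeR, 12117 (90.9%) varied beyond counting noise at a Benjamini-Hochberg adjusted p under 0.05. A stricter test compared each gene with the trended dispersion, a curve fitted to the spread of genes at each level. The median of the trend corresponded to a coefficient of variation of 32.6%. The median of the genes' own coefficients was lower, at 22.8%. A gene that did not pass can therefore still vary more than the typical gene. By the stricter test 523 genes (3.92%) varied above the trend, and 1251 had an unadjusted p under 0.05. The 3.92% is the share to set beside each count of list members above the trend. The 523 genes spanned a median of 8.50-fold from the lowest to the highest library, against 1.81-fold over all tested genes. Of the 207 tested genes that spanned at least 10-fold, 205 were among them. Library 5 was the highest for 321 of the 523, library 3 for 82, library 1 for 60, library 4 for 47 and library 2 for 13. Library 4 was the lowest for 248, library 1 for 113, library 5 for 95, library 2 for 35 and library 3 for 32. The count fell to 389 without library 5, of which 270 were also called with it, and DESeq2 marked 60 genes as dispersion outliers.

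**Figure D1:**
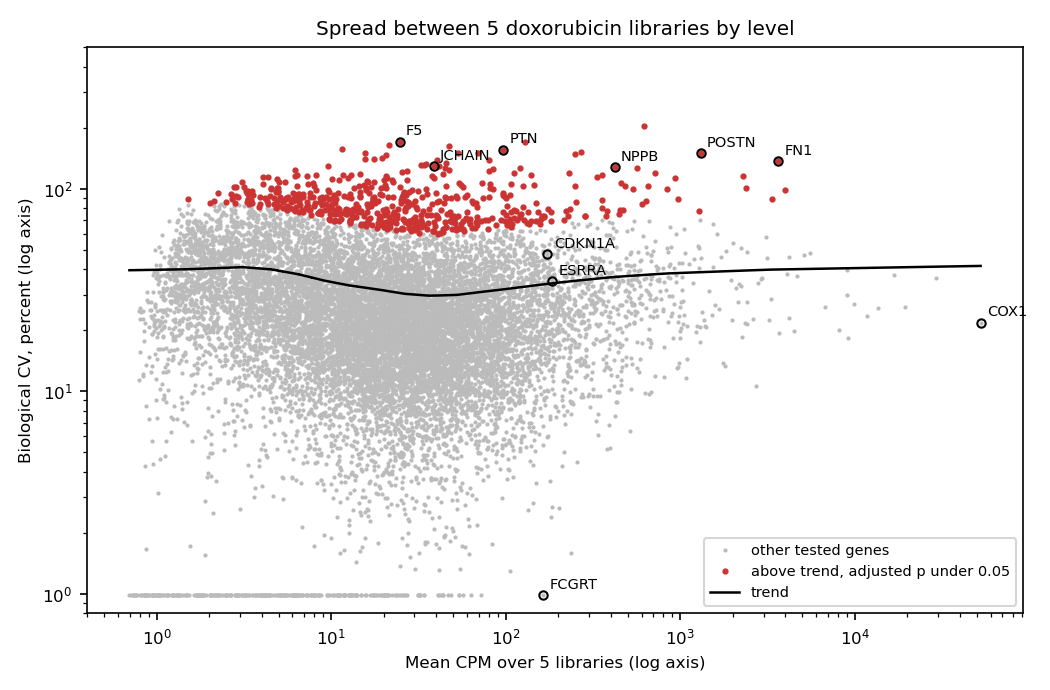
Biological coefficient of variation in percent against mean CPM over the 5 doxorubicin libraries, both on log axes, with 1 point per tested gene, the 523 genes above the trend in red and the trend as a line. F5, PTN, POSTN and FN1 lie far above the line, COX1 lies below it, and genes with no spread beyond counting noise are drawn along the bottom edge.

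Among genes with a name other than a LOC number and a mean of at least 10 CPM, the 15 with the largest excess spread were all highest in library 5 or library 3. F5, which encodes coagulation factor V, stood at 0.966, 6.47, 2.91, 1.08 and 112 CPM (adjusted p = 4.10e-31). Library 5 was high and the other 4 were low. PTN, the heparin-binding growth factor pleiotrophin, had the widest range of these genes at 19.7, 22.7, 53, 1.14 and 388 CPM, a 311-fold span (adjusted p = 1.90e-23). Library 4 was low and library 5 high. ACTG2, the smooth muscle gamma actin, stood at 5.80, 5.80, 54.6, 2.68 and 132 CPM (adjusted p = 4.86e-20), high in libraries 3 and 5 alike. CHI3L1, a secreted chitinase-like glycoprotein of inflamed tissue, took 5.62, 62.9, 177, 2.16 and 156 CPM, so libraries 2, 3 and 5 were high and libraries 1 and 4 low. The other 11 of the 15 were TMEM45A, PTGES, WISP1, CTHRC1, SFRP4, PRRX2, COL11A1, CA9, CHAD, SLC16A3 and JCHAIN. JCHAIN and CHAD peaked in library 3 and the other 9 in library 5. Without library 5 the calls of TMEM45A (adjusted p = 0.709), PTGES (0.140), SFRP4 (0.926), CA9 (1.0) and SLC16A3 (1.0) were lost, and without library 3 that of JCHAIN (0.197). F5 kept its call without library 5 at an adjusted p of 0.0433. Some loci with LOC numbers had an excess as large, among them the immunoglobulin constant region LOC102165485 at 38.6, 7.31, 2958, 3.70 and 75.9 CPM (adjusted p = 4.17e-34), which was high in library 3.

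At the other end, 5 abundant genes barely moved. FCGRT, the neonatal Fc receptor that recycles antibody, stood at 162, 162, 162, 164 and 170 CPM, and LAPTM4B, a lysosomal membrane protein, at 232, 241, 236, 242 and 231 CPM. UBXN4, PAFAH1B1 and GLO1 were as even, with spans of 1.07-fold, 1.08-fold and 1.09-fold from the lowest to the highest library.

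Natriuretic peptides differed between the libraries by up to 88.9-fold, and the 2 peptide genes did not follow the same order. NPPB, which encodes B-type natriuretic peptide, a hormone that stretched ventricle releases, lies on chromosome 6 at 71930374 to 71931843 (Sscrofa11.1). Its level was 108, 199, 1042, 11.6 and 745 CPM (421 ± 449, SD, n = 5), an 88.9-fold span (adjusted p = 2.53e-10). Libraries 3 and 5 were high, libraries 1 and 2 intermediate and library 4 low. NPPA, the gene of atrial natriuretic peptide on the same chromosome at 71919557 to 71921345, stood at 12.4, 4.46, 64.3, 31.0 and 21.1 CPM (adjusted p = 1.82e-05). Library 3 was again the highest, but library 2 was the lowest and library 4, lowest for NPPB, was second. NPPB kept its call without each library in turn, with adjusted p between 2.77e-20 and 0.00644, while NPPA lost it without library 2 (0.103) or library 3 (0.0555). Of 19 tested genes of the stress peptide and fetal gene list, 4 varied above the trend, against 3.92% of all tested genes. The other 2 were UCHL1, a deubiquitinase, at 4.35, 10.04, 19.6, 3.30 and 89.3 CPM, and CKB, the brain isoform of creatine kinase, at 26.7, 77.7, 83.1, 31.9 and 309 CPM. Both were highest in library 5. The embryonic and slow contractile members did not join them: the slow myosin gene MYH7 stood at 30260, 37945, 25945, 36354 and 14475 CPM and skeletal actin ACTA1 at 12310, 14277, 11355, 12993 and 7561 CPM, and both were lowest in library 5. Over the whole list the median deviation from a gene's own mean was -0.13, 0.11, 0.35, -0.16 and -0.25 on the log2 scale.

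**Figure D2:**
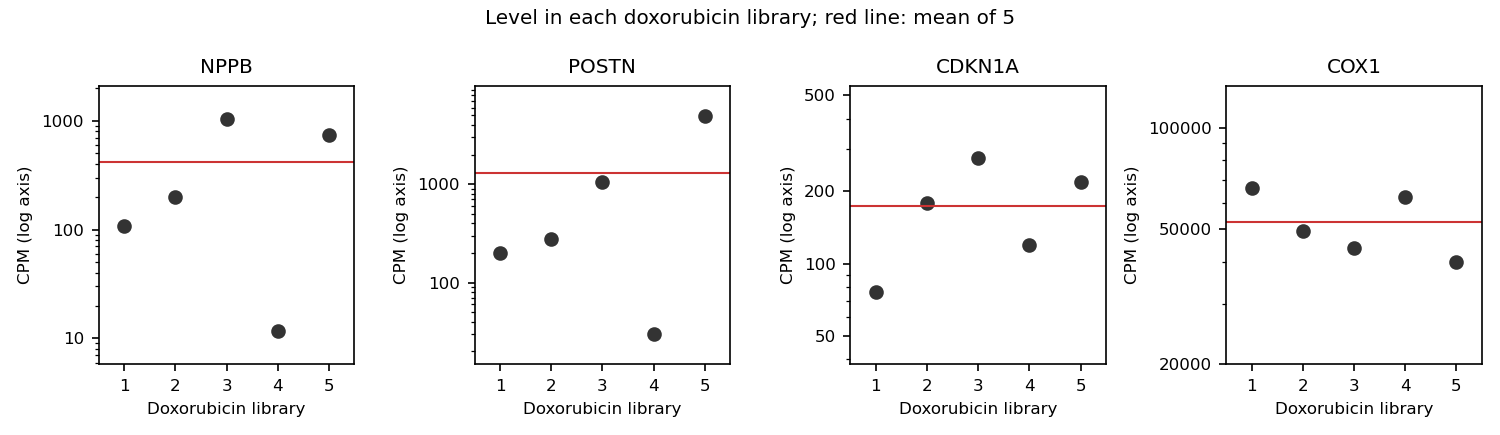
CPM on a log axis of NPPB, POSTN, CDKN1A and COX1 in each of the 5 doxorubicin libraries, with 1 point per library and the mean of 5 as a red line. NPPB and POSTN span 88.9-fold and 167-fold, CDKN1A 3.57-fold and COX1 1.66-fold.

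Genes of the extracellular matrix differed widely between the libraries, and many of them in the same order. POSTN, which encodes periostin, a matrix protein of activated fibroblasts, lies on chromosome 11 at 13225183 to 13258973. It stood at 201, 278, 1061, 29.7 and 4979 CPM (1310 ± 2089, SD, n = 5), a 167-fold span (adjusted p = 4.72e-14). From low to high the libraries ran 4, 1, 2, 3 and 5. FN1, the gene of fibronectin, took the same order at 546, 1170, 2284, 226 and 13912 CPM (adjusted p = 3.66e-10). So did COL1A1, a chain of type I collagen, at 580, 1534, 1945, 512 and 7239 CPM (adjusted p = 0.000196). COL3A1, the type III collagen gene, stood at 1246, 1992, 2808, 1132 and 12586 CPM (adjusted p = 0.000673).

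Of 42 tested collagen and matrix genes, 26 varied above the trend, against 3.92% of all tested genes. The library order of POSTN held for 23 of the 42, POSTN itself among them, against 571 of the 13332 tested genes (4.28%). Library 5 was the highest for 32 and library 3 for 9, against 33.8% and 15.8% of tested genes. Library 4 was the lowest for 28 and library 1 for 10, against 19.8% and 18.5%. The median deviation of the list was -0.91, -0.19, 0.60, -1.10 and 1.52 on the log2 scale in libraries 1 to 5, so that library 5 was above library 4 by 2.62. The median span of its members was 7.48-fold, and DESeq2 marked 10 of them as dispersion outliers. TNC, the gene of tenascin C, spanned 44.4-fold, FMOD, which encodes the collagen-binding fibromodulin, 56.2-fold, and CTHRC1, a secreted protein of activated fibroblasts, 89.6-fold. Some members went their own way. CILP, a cartilage layer protein that fibroblasts also make, was at 86.7, 58.5, 118, 26.9 and 21.9 CPM, lowest in library 5. THBS4, a thrombospondin, was at 201, 205, 733, 112 and 166 CPM, high in library 3. DCN, the decorin gene of resting fibroblasts, did not pass the test at 451, 148, 322, 332 and 720 CPM (adjusted p = 0.557). Leaving out each library in turn left 18 to 25 of the 42 genes above the trend, with the lowest count without library 4. Without library 5, 22 passed, some of them not called with it. Those no longer called then included COL1A2 (adjusted p = 0.292), COL3A1 (0.871), COL5A2 (0.0564), LOX (1.0), LOXL2 (0.722), MMP14 (0.882) and SPARC (0.151), and SPARC was also lost without library 1 (0.0547) or library 4 (0.0540). LOX was lost without library 1 (0.0884) or library 4 (0.0859) as well. CILP lost its call without library 3 (0.139) or library 4 (0.128), and THBS4 without library 2 (0.0665), 3 (1.0) or 4 (0.160). FN1 was still called without library 5 (4.46e-05), and so was POSTN (1.93e-12).

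Genes of fibroblast activation followed the matrix. Of 16 tested members, 10 varied above the trend, and library 5 was the highest for 13. The POSTN order of libraries held for 10, POSTN itself among them. The shares of all tested genes were 3.92% above the trend, 4.28% with the POSTN order and 33.8% highest in library 5. Several of the 16 genes are also in the matrix list. ACTA2, the alpha smooth muscle actin of myofibroblasts, stood at 217, 296, 632, 110 and 2001 CPM (adjusted p = 2.43e-05). SCX, a transcription factor of tendon cells, stood at 3.68, 5.08, 14.2, 1.14 and 40.8 CPM (adjusted p = 2.85e-09). RUNX1, a transcription factor, was at 6.28, 12.5, 29.2, 5.35 and 53.1 CPM. Libraries 3 and 5 were the upper pair for each of these 3 genes, and library 4 was the lowest. In bulk tissue, fewer cells of a type and less RNA per cell cannot be told apart, here or in any result below. Markers of fibroblasts as such were less even: 5 of 14 varied above the trend, against 3.92% of all tested genes. Their summed level was 4637, 5880, 8582, 3861 and 30661 CPM, which rests largely on the 3 fibrillar collagen genes in that list. PDGFRA, a surface receptor of fibroblasts, was at 33.9, 14.7, 10.5, 19.8 and 28.1 CPM and TCF21, a transcription factor of resting fibroblasts, at 11.9, 11.7, 16.7, 12.8 and 9.04 CPM, and neither passed the test.

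Contractile genes of smooth muscle did not run alike. ACTG2, ACTA2 and TAGLN, genes that myofibroblasts also express, had the POSTN order, and TAGLN stood at 252, 435, 1048, 148 and 2336 CPM. MYH11, the smooth muscle myosin heavy chain, took 176, 32.4, 153, 44.2 and 66.4 CPM instead, high in libraries 1 and 3 (adjusted p = 0.0105). It lost its call without library 1 (0.0793), library 2 (0.373) or library 4 (0.0790). In all, 5 of 11 tested members varied above the trend and 4 had the POSTN order, against 3.92% and 4.28% of all tested genes. Libraries 1 to 5 were the highest for 3, 1, 2, 1 and 4 of the 11.

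The genes nearest in profile were found by the root mean square difference in centred log2 CPM over the 5 libraries, a description with no test. Nearest to POSTN were CTHRC1, PRRX2, PTN, ITGA8 and FMOD, and nearest to NPPB were COL11A1, an immunoglobulin constant region (LOC110258346), ITGA8, CTHRC1 and FMOD. ITGA8, an integrin subunit near the top of both lists, stood at 12, 19.9, 60.1, 2.22 and 142 CPM, low in library 4 and high in libraries 3 and 5. The immunoglobulin region took 9.36, 22.2, 198, 0.740 and 118 CPM, and was higher in library 3 than in library 5, as NPPB was. The libraries ranked 4, 1, 2, 5 and 3 from low to high for NPPB. This order held for 204 of the 13332 tested genes, NPPB among them. Of the 204, 37 varied above the trend, against 3.92% of all tested genes.

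Opposite to both NPPB and POSTN were BTNL9 and SLC26A10. BTNL9, a butyrophilin-like surface protein, stood at 43.0, 12.7, 6.89, 47.0 and 1.48 CPM (adjusted p = 1.12e-09), and SLC26A10 at 18.1, 8.42, 3.47, 23.2 and 1.53 CPM (adjusted p = 7.02e-05). Libraries 1 and 4 were high and library 5 was the lowest for each. CCL21, a chemokine made by lymphatic endothelium, was at 23.2, 16.2, 11.3, 49.3 and 0.767 CPM (adjusted p = 6.05e-09). The reverse of the POSTN order held for 512 tested genes (3.84%) and for 20 of the 523 above the trend, while the POSTN order itself held for 144 of the 523. The order was read after the values were seen, and any fixed order of 5 libraries takes some share of genes.

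**Figure D3:**
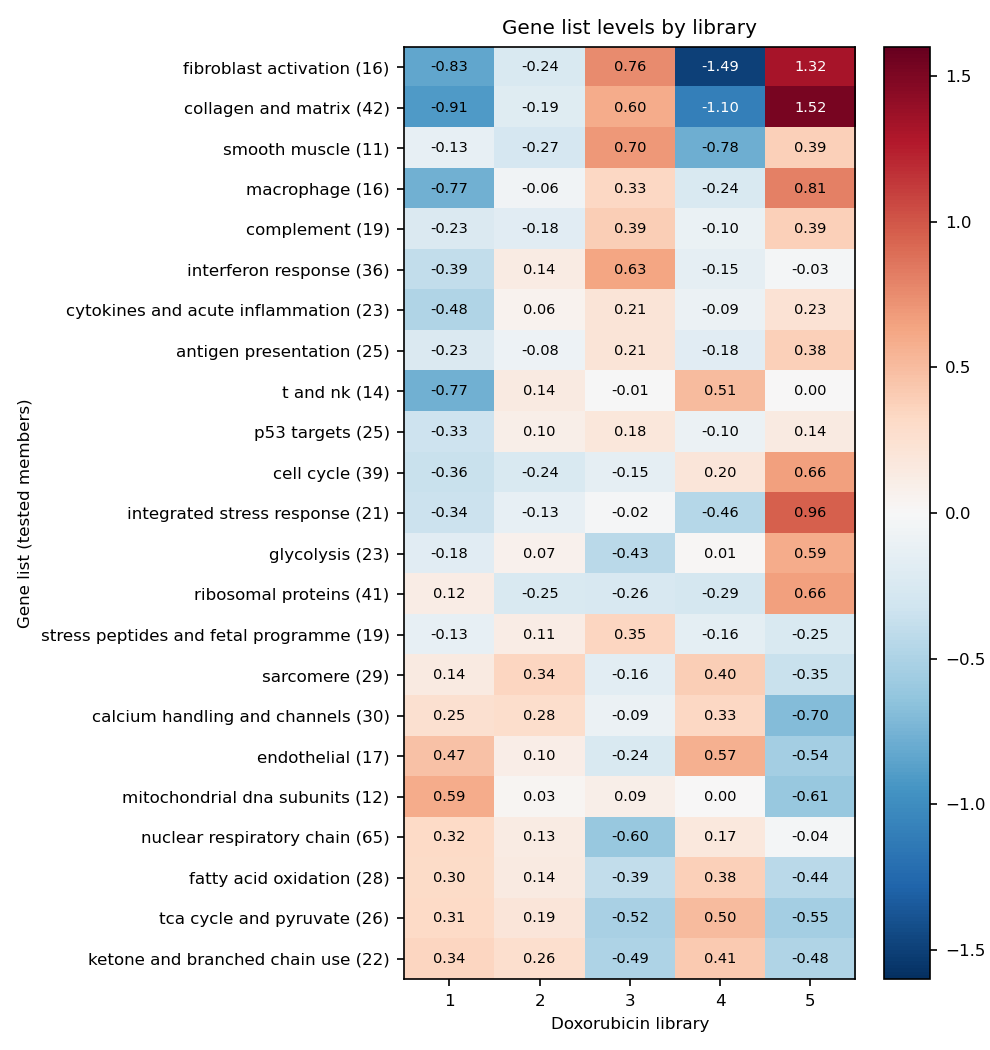
Median difference of log2 CPM from each gene's mean over the 5 doxorubicin libraries, for the tested members of 23 gene lists (number in brackets), in libraries 1 to 5. Collagen and matrix runs from -1.10 in library 4 to 1.52 in library 5, and TCA cycle and pyruvate genes from 0.50 in library 4 to -0.55 in library 5.

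Genes of oxidative metabolism differed less between the libraries than matrix genes did, but not less than the typical gene. No member of the respiratory chain, TCA cycle or ketone lists stood above the trend. The median span was 2.38-fold for subunits of mitochondrial DNA and 1.93-fold for respiratory chain subunits of nuclear genes. It was 2.25-fold for TCA cycle and pyruvate genes and 2.11-fold for ketone and branched-chain genes, against 1.81-fold over all tested genes. COX1, the mitochondrial gene of cytochrome c oxidase subunit I at 6511 to 8055 of mitochondrial DNA, stood at 66410, 49538, 44118, 62341 and 39892 CPM (52460 ± 11493, SD, n = 5). Libraries 1 and 4 were high and library 5 was the lowest, within a 1.66-fold span (adjusted p = 1.0). A locus with no gene symbol, outside mitochondrial DNA and annotated by the authors as this same subunit, took a further 2.01%, 1.65%, 1.59%, 2.19% and 0.823% of the counts, so reads may be split between the pair. Library 1 was the highest for all 12 tested subunit genes of mitochondrial DNA, against 20.1% of tested genes, and library 5 the lowest for 10, against 33.1%. Their medians were 0.59, 0.03, 0.09, 0.00 and -0.61 on the log2 scale. ND4L, a short subunit of complex I, had the widest span of them at 2284, 1882, 1838, 1757 and 382 CPM, with library 5 low (adjusted p = 0.443).

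Subunits of the same respiratory chain that nuclear genes encode had another pattern. Library 3 was the lowest for 64 of the 65 tested, against 17.5% of tested genes, and library 1 was the highest for 44 and library 4 for 17. Their medians were 0.32, 0.13, -0.60, 0.17 and -0.04. COX7A1, a muscle isoform of cytochrome c oxidase subunit VIIa, stood at 392, 297, 128, 245 and 211 CPM. It did not pass the test (adjusted p = 1.0), nor did any of the 65. Library 5, the lowest for mitochondrial DNA, was near the middle for the nuclear list, but not once the length trend was removed. With that trend removed the nuclear medians were 0.31, 0.17, -0.43, 0.33 and -0.39, so library 5 was about as low as library 3. The median of mitochondrial DNA in library 5 was then -0.93. The cause of the length trend was not tested, so either set of medians may be nearer the true levels. Of the 12 genes of mitochondrial DNA 1 had an unadjusted p under 0.05 by edgeR, and of the 65 nuclear genes 0, and DESeq2 marked 0 in either list. Neither list gained a call when a library was left out.

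Fuel genes upstream of the chain were low in both libraries 3 and 5. Among 26 tested genes of the TCA cycle and pyruvate entry, library 4 was the highest for 20, against 19.3% of tested genes. Library 5 was the lowest for 17 and library 3 for 9, against 33.1% and 17.5%. The medians were 0.31, 0.19, -0.52, 0.50 and -0.55. PDHA1, the catalytic subunit of pyruvate dehydrogenase, stood at 857, 768, 407, 1049 and 334 CPM and citrate synthase, CS, at 633, 838, 409, 1042 and 306 CPM. Ketone and branched-chain amino acid genes ran alike, with medians of 0.34, 0.26, -0.49, 0.41 and -0.48 over 22 genes. BDH1, the first enzyme of ketone use, was at 210, 160, 76.8, 196 and 42.1 CPM (adjusted p = 0.101). None of the 26 or the 22 genes varied above the trend by edgeR or was an outlier by DESeq2, and 0 and 5 had an unadjusted p under 0.05.

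Of 28 tested fatty acid genes, 2 varied above the trend (PDK4 and PLIN5), against 3.92% of all tested genes. PDK4, the kinase that shuts pyruvate dehydrogenase in favour of fat, stood at 261, 52.0, 92.2, 49.9 and 49.1 CPM (adjusted p = 0.00414), high in library 1, and was not called without it (1.0). PLIN5, a lipid droplet protein of oxidative muscle, stood at 9.96, 8.54, 2.30, 11.6 and 1.53 CPM (adjusted p = 0.0275), low in libraries 3 and 5, and lost its call without library 2 (0.0505), 3 (0.161), 4 (0.105) or 5 (0.0902). ACSL1, which activates long-chain fatty acids, was at 415, 302, 179, 431 and 119 CPM (adjusted p = 0.608). The list medians were 0.30, 0.14, -0.39, 0.38 and -0.44. ESRRA, on chromosome 2 at 7803504 to 7812868, was at 245, 218, 116, 221 and 120 CPM (184 ± 61.2, SD, n = 5). Libraries 3 and 5 were low and the other 3 were close together, within a 2.11-fold span that did not pass the test (adjusted p = 1.0). The genes nearest to COX1 in profile outside mitochondrial DNA were VPS36, OXSM, MINDY2, DPH6 and BCS1L. BCS1L, an assembly factor of respiratory complex III, stood at 27.2, 19.7, 17.0, 23.4 and 15.2 CPM, and RTN4, TMBIM1 and ITFG1 ran opposite.

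Several genes of glycolysis, of low oxygen and of amino acid stress were far higher in library 5 than in the others. LDHA, the lactate dehydrogenase subunit that favours lactate, stood at 79.2, 110, 111, 89.5 and 854 CPM (adjusted p = 2.61e-06). SLC16A3, a lactate exporter, was at 9.48, 13.8, 11.5, 6.04 and 166 CPM (adjusted p = 2.68e-17), and CA9, a cell-surface carbonic anhydrase induced by low oxygen, at 2.96, 3.46, 2.86, 4.04 and 74.8 CPM (adjusted p = 1.92e-17). The other 4 libraries were near each other for all 3 genes. Of 23 tested glycolysis genes 6 varied above the trend, against 3.92% of all tested genes. Library 5 was at least 2-fold above the median of the others for 9, against 9.62% of tested genes. Abundant muscle members did not take part: PFKM, the muscle phosphofructokinase, stood at 1319, 1493, 660, 1544 and 624 CPM, low in libraries 3 and 5. In the hypoxia and glucocorticoid list 8 of 22 tested genes passed, against the same 3.92%. Among them were NDRG1, a hypoxia-induced gene, at 30.9, 22.1, 34.8, 21.2 and 256 CPM, and VEGFA, an angiogenic growth factor, at 167, 89.2, 72.7, 100.5 and 477 CPM. In the integrated stress response list 7 of 21 passed, against 3.92% again. PSAT1, an enzyme of serine synthesis, stood at 7.37, 3.46, 10.9, 7.80 and 74.7 CPM, and PYCR1, an enzyme of proline synthesis, at 8.94, 18.6, 34.6, 5.01 and 127 CPM. PYCR1 had the POSTN order and PSAT1 did not. Library 5 was the highest for 16 of the 21, against 33.8% of tested genes. Without library 5 none of the glycolysis genes was called, 2 of the hypoxia list (PDK4 and DUSP1) and 3 of the stress list (PYCR1, NUPR1 and SLC7A5) were, and CA9 (1.0), LDHA (1.0), SLC16A3 (1.0), NDRG1 (1.0), VEGFA (0.798) and PSAT1 (0.889) lost their calls. VEGFA was also not called without library 2 (0.0548) or library 3 (0.0565). PYCR1 kept its call (6.13e-05). NUPR1 lost its call without library 2 (0.131), 3 (0.139) or 4 (0.643), and SLC7A5 without library 1 (0.476). Library 5 was also the highest for all 41 ribosomal protein genes, with a median deviation from the gene's own mean of 0.66 on the log2 scale, and none of these passed edgeR's test, had an unadjusted p under 0.05 (0 genes) or was marked by DESeq2 (0 genes). The difference in the list median between the extreme libraries was 0.94, and 0.45 with the length trend removed.

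The DNA damage marker CDKN1A and its companions differed modestly. CDKN1A, which encodes the cell cycle inhibitor p21, a target of p53, lies on chromosome 7 at 32354776 to 32363771. It stood at 76.5, 179, 273, 120 and 219 CPM (173 ± 78.0, SD, n = 5), high in library 3 and low in library 1, within a 3.57-fold span that did not exceed the trend (adjusted p = 0.737). None of 25 tested p53 targets did by edgeR, 2 had an unadjusted p under 0.05, and DESeq2 marked 0. PHLDA3, another p53 target, stood at 37.7, 93.2, 147, 55.9 and 139 CPM (adjusted p = 0.227) and passed without library 5 (0.0159). MDM2, the p53 inhibitor that p53 induces, was at 30.7, 46.0, 53.3, 39.2 and 49.9 CPM. Library 1 was the lowest for 13 of the 25, against 18.5% of tested genes. The nearest profiles to CDKN1A were ARHGAP4, GIMAP1, GIMAP4, USP18 and PRKCD, and none of them passed the test. GIMAP4, a lymphocyte GTPase, stood at 23.1, 46.0, 74.9, 37.1 and 58.4 CPM and USP18, an interferon-induced protease, at 14.1, 30.1, 50.1, 23.2 and 34.6 CPM. FITM1, CFD and SMYD3 ran opposite to it. No cell cycle gene of 39 passed by edgeR, 3 had an unadjusted p under 0.05, and DESeq2 marked 0. Library 5 was the highest for 30 of these, against 33.8% of tested genes. TYMS, thymidylate synthase, stood at 8.75, 31.0, 34.3, 27.4 and 46.0 CPM (adjusted p = 0.147) and passed only without library 5 (0.0267).

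Interferon-stimulated genes were highest in library 3. Of 36 tested members, library 3 was the highest for 30, against 15.8% of tested genes, and library 1 the lowest for 23. Their medians were -0.39, 0.14, 0.63, -0.15 and -0.03. IFI6, a mitochondrial protein induced by interferon, stood at 131, 339, 898, 193 and 674 CPM (adjusted p = 0.0311) and ISG12(A) at 81.7, 78.9, 281, 40.9 and 155 CPM (adjusted p = 0.0168). MX2, an antiviral GTPase, ran otherwise at 11.8, 22.9, 20.4, 13.7 and 1.97 CPM, low in library 5 (adjusted p = 0.00545), and was not called without it (1.0). With IRF7, 4 of the 36 varied above the trend, against 3.92% of all tested genes. When each library was left out, 1 to 6 of the 36 did. IFI6 lost its call without library 1 (0.465), 2 (0.0683), 3 (0.214) or 4 (0.119), ISG12(A) without library 2 (0.0741), 3 (0.580) or 4 (0.364), and IRF7 without library 1 (0.573), 3 (0.269) or 4 (0.0887).

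Most macrophage genes were lowest in library 1 and highest in library 5. Of 16 tested markers, library 5 was the highest for 12, against 33.8% of tested genes, and libraries 3 and 4 for 2 each. Library 1 was the lowest for 12, against 18.5%. The list medians were -0.77, -0.06, 0.33, -0.24 and 0.81, with a summed level of 388, 613, 842, 598 and 1192 CPM. SPP1, osteopontin, stood at 31.3, 17.2, 58.2, 7.69 and 165 CPM (adjusted p = 3.59e-09). GPNMB, a glycoprotein of lipid-laden macrophages, was at 25.7, 12.3, 57.0, 5.01 and 37.0 CPM (adjusted p = 0.000124), and TREM2, a lipid-sensing receptor, at 0.604, 2.51, 3.57, 0.797 and 7.23 CPM (adjusted p = 0.0166). For all 3, libraries 3 and 5 were the upper pair. SPP1 and GPNMB were lowest in library 4 rather than library 1, and GPNMB was highest in library 3. AIF1 and LYVE1 also passed, and the count was 1 without library 4, where GPNMB (0.165), TREM2 (0.125), AIF1 (0.112) and LYVE1 (0.622) were no longer called. TREM2 also lost its call without library 1 (0.200) or library 5 (0.136), AIF1 without library 1 (0.186) or library 5 (0.0528), and LYVE1 without library 2 (0.404) or library 3 (0.100). With the length trend removed, TREM2 was not called either. APOE, a lipid carrier that macrophages secrete, took the POSTN order at 20.9, 112, 254, 4.84 and 854 CPM (adjusted p = 4.16e-17).

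Other immune genes had patterns of their own. CCL2, a monocyte chemokine, stood at 22.2, 48.8, 96.6, 16.9 and 114 CPM (adjusted p = 0.000694), with the POSTN order, and lost its call without library 4 (0.0927). It was 1 of 4 called among 23 tested cytokine genes. Complement gave 3 calls of 19, and 3.92% of all tested genes were called. C4A, a gene of complement component C4, was at 13.5, 10.04, 43.5, 3.82 and 9.48 CPM, high in library 3 and not called without it (1.0). C7, a terminal complement component, was at 19.99, 8.87, 17.3, 21.5 and 1.53 CPM, low in library 5 and not called without it (0.812). GNLY, the granulysin of cytotoxic lymphocytes, was the only T or natural killer cell gene of 14 to pass, at 5.13, 15.8, 2.75, 25.7 and 19.6 CPM (adjusted p = 0.00178), and was not called without library 3 (0.289).

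Several antibody genes were highest in library 3, and others in library 5. JCHAIN, which joins antibody multimers, stood at 12.8, 6.03, 147, 4.67 and 22.3 CPM. Of 12 listed B and plasma cell genes only 3 had enough reads in all libraries to be tested, and the other 2 of these, BLNK and XBP1, were highest in library 5. MZB1, a chaperone of plasma cells left untested, had 1, 8, 163, 4 and 65 reads, and an immunoglobulin constant region on chromosome 14 (LOC102158332) had 38, 52, 6908, 4 and 672. Another constant region (LOC110258347) had 8, 13, 290, 5 and 562 reads, so library 5 was the highest for it. Some genes of cartilage were also highest in library 3. CHAD, chondroadherin, stood at 6.28, 16.3, 118, 1.77 and 20.1 CPM (adjusted p = 6.38e-17), and MATN3, matrilin 3, at 2.78, 4.97, 24.2, 1.14 and 6.69 CPM (adjusted p = 3.10e-05). Of 14 listed genes of cartilage and bone 5 were tested and all 5 passed, against 3.92% of all tested genes. Library 3 was the highest for only 2 of them, CHAD and MATN3, and library 5 for the other 3, COL11A1, SOX9 and SPP1. The untested COMP and ACAN had 246 and 223 reads in library 3 and at most 57 elsewhere, and COL2A1, the collagen that defines cartilage, had at most 11 in any library. MATN3 was not called without library 3 (0.563) and CHAD was (0.00645).

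Of 25 tested antigen presentation genes 2 varied above the trend, the classical class I genes SLA-2 and SLA-3, against 3.92% of all tested genes. The median span of the list was 1.93-fold, against 1.81-fold over all tested genes. Library 5 was the highest for 15 of the 25, against 33.8% of tested genes. SLA-2 stood at 138, 852, 152, 857 and 1185 CPM (adjusted p = 0.00279) and SLA-3 at 128, 13.3, 103, 11.8 and 13.8 CPM (adjusted p = 5.91e-10). Libraries 1 and 3 were low for SLA-2 and high for SLA-3, and libraries 2, 4 and 5 the reverse. These genes are near-identical, highly variable copies, so reads may be assigned to one or the other by allele and the levels of each are uncertain. SLA-2 lost its call without library 1 (0.175) or library 3 (0.101). The other presentation genes that did not pass included CD74, the class II chaperone, at 817, 910, 1385, 932 and 972 CPM. SLA-DRB1 (adjusted p = 0.0537) and SLA-6 (0.0505) missed the threshold narrowly, and both passed without library 5 (0.000485 and 0.00494). The count of calls in the list was then 4.

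The same split of libraries recurred in a few muscle genes. MYL7, the atrial myosin regulatory light chain, stood at 5.49, 134, 6.02, 116 and 139 CPM (adjusted p = 3.19e-13), low in libraries 1 and 3 with a gap of over 10-fold to the others. SMIM5, a small membrane protein, was at 7.67, 41.1, 3.47, 45.3 and 36.9 CPM (adjusted p = 1.52e-06). SLN, sarcolipin, an atrial regulator of the calcium pump, went the other way at 5.01, 0.670, 5.87, 0.740 and 1.37 CPM (adjusted p = 0.0119). SMIM5 was not called without library 3 (0.0636), and SLN not without library 2 (0.144), 3 (0.0810) or 4 (0.0955), while MYL7 kept its call without each library in turn. Atrial markers as a list did not share that split, with a summed level of 1535, 1795, 2077, 1650 and 1463 CPM. Of the 13 tested, 4 were above the trend, against 3.92% of all tested genes. NPPA, also an atrial marker, was highest in library 3, where MYL7 was low.

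**Figure D4:**
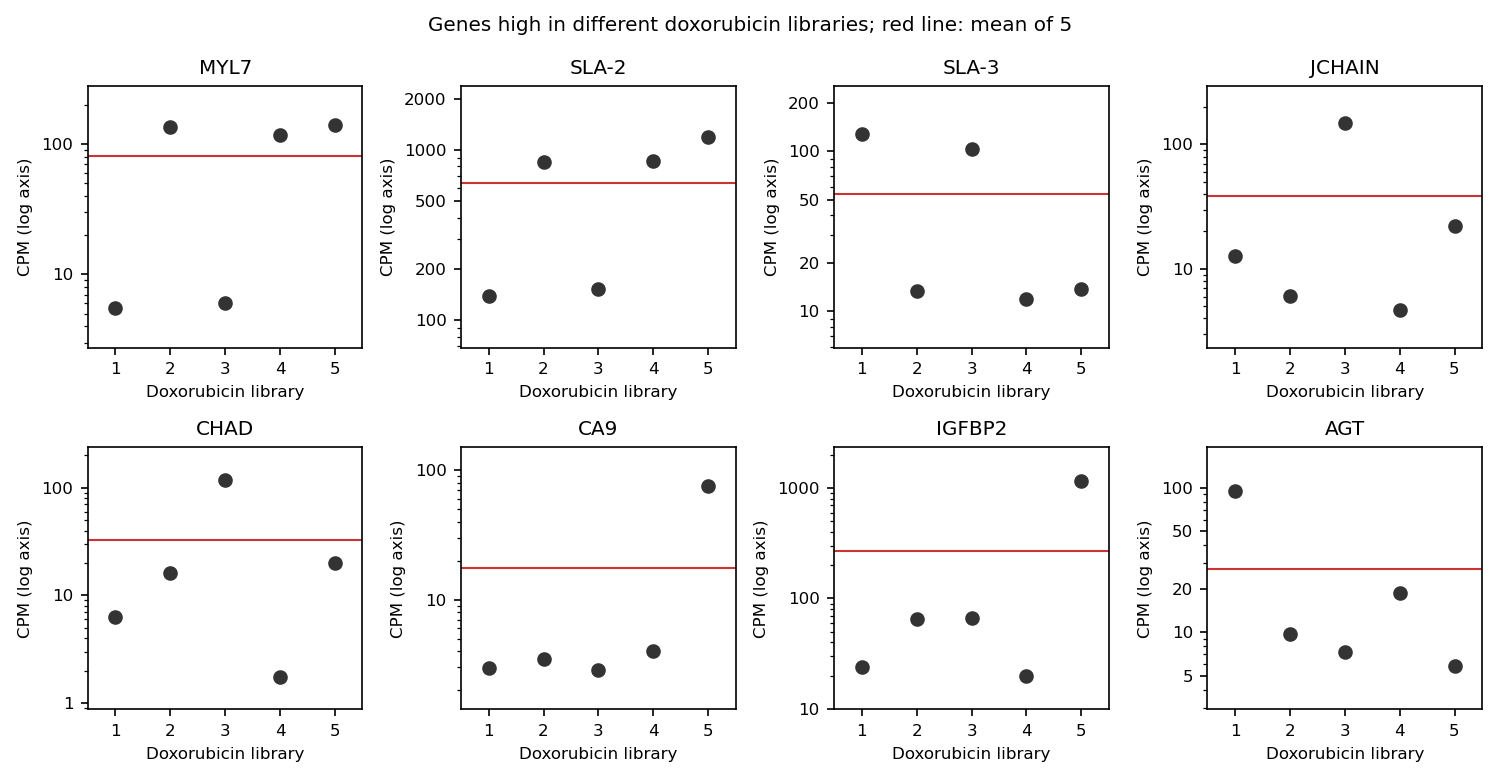
CPM on a log axis of 8 genes in each of the 5 doxorubicin libraries, with 1 point per library and the mean of 5 as a red line. MYL7 and SLA-2 are low in libraries 1 and 3 and SLA-3 is high there, JCHAIN and CHAD peak in library 3, CA9 and IGFBP2 in library 5 and AGT in library 1.

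Few contractile and calcium-handling genes varied above the trend. Of 29 sarcomere genes 2 passed, MYL7 and NEB, and of 30 calcium and channel genes 2 passed, KCNJ5 and SLN, shares near the 3.92% of all tested genes. NEB, nebulin, stood at 39.4, 95.0, 81.8, 66.6 and 11.2 CPM (adjusted p = 0.00378), low in library 5, and was not called without it (0.718). RYR2, the calcium release channel, stood at 914, 844, 320, 1053 and 168 CPM (adjusted p = 0.103), low in libraries 3 and 5. Library 5 was the lowest for 23 of the 30 calcium and channel genes and 16 of the 29 sarcomere genes, against 33.1% of tested genes. The median of the calcium list was -0.70 in library 5 and -0.09 to 0.33 in the others. KCNJ5, a potassium channel, was at 32.2, 49.2, 13.9, 58.9 and 10.03 CPM (adjusted p = 0.00435), and lost its call without library 3 (0.0640) or library 4 (0.0559).

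Endothelial markers ran against the matrix. None of 17 passed edgeR's test, 6 had an unadjusted p under 0.05 and DESeq2 marked 0. With the length trend removed 1 of the 17 passed, and without library 5 also 1. Library 5 was the lowest for 13 and library 4 the highest for 11, and 8 of the 17 had the reverse of the POSTN order. The matching shares of all tested genes were 33.1%, 19.3% and 3.84%. VWF, von Willebrand factor, stood at 513, 503, 273, 534 and 109 CPM (adjusted p = 0.332), and KDR, the main receptor of VEGFA, at 155, 124, 96.6, 170 and 34.5 CPM (adjusted p = 0.229). Lymphatic markers gave 3 calls of 7 (CCL21, LYVE1 and MMRN1), against 3.92% of all tested genes. MMRN1, multimerin, was at 5.55, 4.07, 1.02, 13.2 and 1.04 CPM (adjusted p = 0.00158), high in library 4, and was not called without it (0.243).

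Each library had genes that set it apart by at least 2-fold from the median of the other 4. Library 5 had by far the most, 1282 genes above (9.62%) and 1372 below (10.3%), and library 2 the fewest, 101 above (0.758%) and 163 below (1.22%). Library 1 had 354 above (2.66%) and 568 below (4.26%), library 3 had 608 above (4.56%) and 338 below (2.54%), and library 4 had 260 above (1.95%) and 555 below (4.16%). Library 2 was also the least often extreme, the highest for 10.9% and the lowest for 11.1% of tested genes. Library 4 was the lowest for 19.8%.

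Library 1 was set apart above the rest by AGT, SLA-3, FMO2 and HBB. AGT, angiotensinogen, the source of angiotensin, stood at 94.7, 9.65, 7.29, 18.6 and 5.86 CPM (adjusted p = 1.14e-10). HBB, haemoglobin beta, stood at 93.1, 10.9, 14.0, 33.1 and 6.96 CPM. FMO2, a flavin monooxygenase, stood at 41.2, 9.26, 2.70, 19.1 and 1.04 CPM, high in libraries 1 and 4. AGT (0.829) and HBB (0.136) were not called without library 1. MYL7, CHI3L1 and ESM1, an endothelial proteoglycan, were the furthest below in library 1, and ESM1 was at 2.42, 45.5, 37.9, 5.35 and 133 CPM.

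Library 2 lay furthest above in MYL7, PENK, CPNE5 and F5 and furthest below in NPPA, SLA-DRB1 and MYH11. PENK, the enkephalin precursor, stood at 5.13, 32.5, 35.7, 5.35 and 10.6 CPM, high in libraries 2 and 3. CPNE5 lost its call without library 1 (0.0885), 2 (0.231), 3 (0.0677) or 4 (0.0830). Library 3 was above in JCHAIN, CHAD, CHI3L1 and ACTG2 and below in MYL7, SMIM5 and CCK. CCK, the cholecystokinin precursor, stood at 373, 531, 38.9, 634 and 195 CPM (adjusted p = 0.00121), low in library 3, and was not called without it (1.0). Library 4 was above in BTNL9, SLC26A10, MYL7 and FMO1 and below in CHI3L1, APOE and NPPB. FMO1, another flavin monooxygenase, stood at 99.0, 27.1, 14.5, 74.7 and 9.10 CPM.

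Library 5 was furthest above in F5, PTGES, IGFBP2 and WISP1. IGFBP2, a carrier of insulin-like growth factors, stood at 24.2, 64.6, 67.2, 19.9 and 1168 CPM (adjusted p = 3.79e-18), and PTGES, prostaglandin E synthase, at 0.604, 1.79, 4.03, 0.968 and 50.4 CPM. WISP1, a matricellular growth factor of the CCN family, stood at 1.21, 7.36, 5.30, 0.683 and 63.2 CPM. IGFBP2 (0.00328) and WISP1 (0.00248) were still called without library 5, and PTGES was not (0.140). The furthest below were CCL21, BTNL9 and APOD. APOD, a lipid-binding protein, stood at 191, 46.8, 66.5, 110 and 6.08 CPM (adjusted p = 2.45e-07).

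**Figure D5:**
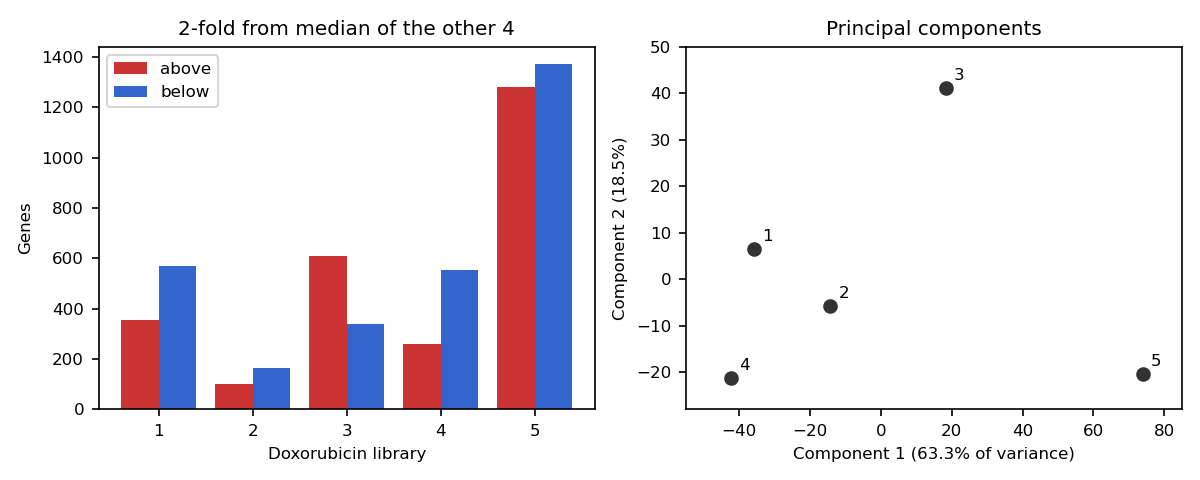
Left, number of tested genes at least 2-fold above (red) or below (blue) the median of the other 4 in each doxorubicin library. Right, scores of the 5 libraries on the first and second principal components of log2 CPM, which hold 63.3% and 18.5% of the variance. Library 5 has 1282 and 1372 such genes and the highest score on the first component, and libraries 4 and 1 the lowest.

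The first principal component of log2 CPM held 63.3% of the variance and placed the libraries in the order 4, 1, 2, 3 and 5 from low to high, the order of POSTN. The scores were -35.7, -14.2, 18.3, -42.2 and 73.9 for libraries 1 to 5. Without library 5 the first component held 59.6%, and the remaining 4 kept the order 4, 1, 2 and 3, with scores of -34.2, -19.0, 0.616 and 52.6. The second component held 18.5%, with library 3 at its top, and the third held 13.2%.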

How the data were processed

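RNA of 5 doxorubicin heart samples was analysed from the deposited table of raw counts per gene for the series, in which whole numbers sum to a different total in each library. Per the labels' protocols, RNA was isolated with RNeasy and libraries were made with a SMARTER kit. Neither aligner nor counter nor strand setting is named there, so reads of overlapping or antisense genes cannot be told apart. The deposited gene length was used only for the length trend. Of 31014 listed genes, 30335 identifiers matched RefSeq on Sscrofa11.1 with the same start and end, and 655 were unannotated. For the 69 symbols with more than 1 entry, a list took the entry with the highest total.

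The analysis used edgeR 4.0.16 (R 4.3.3). Its filterByExpr was applied to the 5 libraries (minimum count 10, minimum total 15), which in effect asks for reads in every library and removes genes near 0 in any. Libraries were scaled by TMM. Goodness of fit to a single mean was tested at dispersion 0 (counting noise) and at the trended dispersion, with Benjamini-Hochberg adjustment over 13332 genes and 0.05 as threshold. Log2 CPM used a prior count of 2, and spans come from it. The procedure was tested on simulated data. DESeq2 1.42.0 was an alternative. Named genes were, by rule, 6 fixed genes, the 15 with the largest excess dispersion and, at 100 CPM or more, the 5 with the smallest dispersion. Up to 4 of smallest p per list, the nearest profiles to 4 genes and the furthest genes of each library were also named by rule. Others named were chosen after their values were seen, and some items are not reported here. The members, gene lists and rules were chosen with earlier results of these data known.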

Additional observations from a re-analysis of the deposited data

Results flagged for a closer look

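For 17 of the values described, 1 library lay apart from the other 4 by Dixon's ratio, the gap to the nearest library over the whole range, above 0.71, the limit for 5 samples. The values looked at were those of 204 named genes, medians of gene lists and measures of each library. Chance alone gives a ratio above the limit in about 1 of 20 groups. Of the tested genes 1221 (9.16%) exceeded it, 974 of them through library 5, and the 17 are not an excess over that share. Library 5 was high for CA9 (ratio 0.896), LDHA (0.858), NDRG1 (0.801), DNAJB1 (0.799), PFKFB3 (0.757), FCGRT (0.757), SLC16A3 (0.751), TNNI1 (0.744) and BHLHE40 (0.735). Library 5 was low for CLOCK (0.865), ND4L (0.853), CACNA1C (0.770) and MX2 (0.727), and for the median deviation of long genes (0.898). For FCGRT the whole range was 162 to 170 CPM, so the ratio marks a gap of a few percent. CACNA1C, a calcium channel gene, stood at 104, 107, 83.1, 126 and 20.8 CPM, and CLOCK, a core clock gene, at 10.8, 12.3, 10.9, 13.1 and 3.12 CPM. TNNI3, cardiac troponin I, was low in library 3 (0.742) at 4808, 4973, 1531, 5537 and 3973 CPM. HSPA1L (0.737) and the share of haemoglobin counts (0.724) were high in library 1.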

How the results depend on the processing

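The count of 523 genes above the trend was 60 as dispersion outliers of DESeq2, and 365 to 402 when each library was left out in turn. DESeq2 marked 10 matrix genes, against 26 called by edgeR, and 4 of fibroblast activation, against 10. For glycolysis the counts were 1 against 6, for the hypoxia list 2 against 8 and for the integrated stress response 2 against 7. In the interferon, complement, immediate early, circadian and macrophage lists DESeq2 marked 0, where edgeR called 4, 3, 4, 3 and 5. It was 632 with no filter, 581 with CPM above 1 in at least 3 libraries and, added after seeing the data, 730 with at least 10 reads in at least 1 library. Of 204 named genes, 34 lost and 9 gained a call without library 5, and 15 to 21 lost one without another library. The cause of these changes was not tested beyond the filter and the number of libraries. No paired analysis was possible because only the doxorubicin group entered and no groups were compared. Depth limits genes near 0 in a library, which the filter removed. The first component held 50.4% of the variance with no filter, 56.6% with at least 10 reads in 1 library, 50.6% with genes at unit variance, 73.4% for the 500 most variable genes, and 59.6% to 75.4% with a library left out.

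Genes at least 2-fold above the others numbered 1561, 1360, 2091, 1396 and 2778 in libraries 1 to 5 with no filter, and 877, 466, 1366, 647 and 2165 with at least 10 reads in 1 library. Genes 2-fold below numbered 1570, 837, 924, 1650 and 2745, and 1259, 598, 706, 1294 and 2212. Scaling by library size only gave 211 below in library 3. Leaving out a library gave 452 to 901 below in library 1, 187 to 268 above and 182 to 441 below in library 2, 245 to 508 below in library 3, and 193 to 489 above and 356 to 836 below in library 4.

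The log2 difference of a list median between its highest and lowest library reversed for heat shock genes, from 0.21 to -0.015, with the length trend removed, which also took ribosomal genes from 0.94 to 0.45. Library size only took the hypoxia list from 0.40 to 0.22 and the circadian list from 0.33 to 0.19. With a library left out the difference ran from 0.65 to 1.22 for mitochondrial DNA, 0.37 to 0.91 for the nuclear respiratory chain, 0.42 to 1.01 for glycolysis, 0.42 to 1.40 for the integrated stress response, 0.58 to 1.08 for interferon, 0.41 to 0.84 for cytokines, 0.20 to 0.45 for hypoxia, 0.44 to 1.06 for calcium handling, 0.40 to 0.94 for ribosomal proteins, 0.29 to 0.94 for atrial, 0.54 to 1.30 for fibroblast, 0.88 to 1.79 for smooth muscle and 0.54 to 1.31 for T and natural killer cell markers.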

Other observations

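Genes that the filter removed because some library had almost no reads were looked at without a test. There were 156 such genes with at least 100 reads in a library. That choice fixes a wide difference between libraries in advance, so their spans add no weight to the results above. Of the 156, 88 were highest in library 5, 28 in library 3, 26 in library 1, 8 in library 4 and 6 in library 2. The matching shares of tested genes were 33.8%, 15.8%, 20.1%, 19.3% and 10.9%. SFRP2, a secreted WNT modulator of fibroblasts, had 228, 626, 2255, 0 and 2807 reads in libraries 1 to 5. CEMIP, a hyaluronan-degrading protein, had 41, 66, 101, 4 and 3315 reads, and the neuronal enolase ENO2 had 9, 11, 11, 2 and 1544. Genes highest in library 1 included SCARA5, a scavenger receptor of resting fibroblasts, with 268, 1, 4, 49 and 0 reads, and HMCN2, a hemicentin, with 578, 32, 15, 264 and 5. The mitochondrial acyl-CoA synthetase ACSM5 had 491, 2, 313, 0 and 0 reads, the split of libraries 1 and 3 against 2, 4 and 5 seen in SLA-3. GDF15, a stress-induced cytokine, had 2, 66, 133, 22 and 168 reads, and CHAC1, a target of the integrated stress response, had 14, 17, 31, 8 and 330. HBE1, an embryonic globin, had 93 reads in library 5 and 0 in the other 4.

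Outside the lists, 3 regulators were looked up after other values were seen. PPARA, a nuclear receptor of fatty acid use, stood at 23.7, 24.4, 8.82, 29.3 and 1.64 CPM, a 16.7-fold span (adjusted p = 4.55e-05, edgeR), low in library 5, and was not called without that library (0.147). PPARGC1A, the coactivator PGC-1 alpha, ran in the same direction at 125, 94.2, 58.7, 102 and 43.1 CPM but did not pass (adjusted p = 0.927). HMOX1, the heme-degrading enzyme induced by oxidative stress, stood at 9.84, 23.4, 21.8, 10.5 and 85.7 CPM (adjusted p = 1.50e-05), high in library 5, and was not called without it (0.330).

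Circadian genes gave 3 calls of 18 tested, against 3.92% of all tested genes. All 3 were highest in library 5: BHLHE41 at 5.92, 6.36, 10.9, 5.07 and 45.0 CPM, BHLHE40 at 55.6, 72.1, 88.4, 65.6 and 320 CPM, and DBP at 6.46, 2.18, 3.32, 5.13 and 19.9 CPM. None was called without library 5 (1.0 for each), and DBP was also not called without library 2 (0.138). Immediate early genes gave 4 calls of 23, against the same 3.92%. DUSP1, a phosphatase, stood at 121, 29.8, 108, 33.1 and 42.6 CPM, high in libraries 1 and 3, and lost its call without library 1 (0.166), 2 (0.306), 3 (0.0874) or 4 (0.147). EGR2, a growth-induced transcription factor, stood at 3.38, 3.57, 11, 2.45 and 19.8 CPM, and was not called without library 5 (0.150). No heat shock gene of 21 passed edgeR's test, 0 had an unadjusted p under 0.05 and DESeq2 marked 0.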
